A study of Homo sapiens with 24 samples.

Results

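CYP46A1, IQCN, TNNC1 and CFAP69 were chosen by their fitted log2 change after 24 hours with 0.5 µM I-BET762 on arrays labelled LNCaP, where they held 4 of the first 5 ranks. They are 4 of 19775 genes that the platform annotation names by probe sets with 1 symbol, and 7 of 41091 such probe sets measure them. RNA from 4 prostate cancer cell lines was hybridised to 24 Affymetrix U133 Plus 2.0 arrays, with 2 biological replicates of each line in DMSO vehicle, 0.5 µM and 10 µM of the compound, which the sample labels call GSK525762A. The compound was present for 24 hours in every treated group, and no line carries an introduced allele in the labels. LNCaP, VCaP and PC3 were established from metastases of prostate cancer and NCI-H660 from a neuroendocrine tumour of the prostate, so each stands for a single patient's tumour grown in culture.

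I-BET762 binds the acetyl-lysine pocket of the bromodomain and extra-terminal (BET) proteins and displaces them from acetylated chromatin. BET proteins recruit the kinase that releases paused RNA polymerase II, so their inhibitors are best known for genes that fall, among them MYC, while other genes rise at the same time. The genes described here belong to no common pathway and are known from other tissues. CYP46A1 is the cytochrome P450 by which neurons hydroxylate cholesterol, and its oxysterol product is a ligand of the liver X receptors. IQCN is a protein with IQ motifs, the short helices that bind calmodulin, and is known from sperm. TNNC1 is the calcium-binding subunit of troponin in heart and slow skeletal muscle, and CFAP69 is a protein of sperm flagella and of cilia.

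Signals are MAS5 intensities on a linear scale. A mean signal of 100 was taken as the floor of detection, and between 44.4% and 50.1% of probe sets on an array reached it. Folds come from the mean log2 signals of the groups, so they can differ from the ratio of the printed means. Where 1 of the groups compared had a mean under 100, its arrays under 100 were put at 100. The fold is then written as a lower bound, and no fold is given where both groups had means under 100. In bulk RNA, fewer cells with a transcript and less of it per cell cannot be told apart. ERG, which the TMPRSS2-ERG fusion places under an androgen-driven promoter in VCaP and NCI-H660, lay between 2867 and 7084 on the 6 arrays labelled LNCaP and between 5.86 and 28.3 on the 6 labelled VCaP. In NCI-H660 ERG lay between 65.5 and 142.7. ETV1, which is rearranged in LNCaP, lay between 14.5 and 90.3 on the former and between 191.7 and 407.8 on the latter. The markers thus go against both labels, so these arrays are called by their labels throughout. Values for PC3 and NCI-H660 do not rest on them. KLK2, a secreted kallikrein of luminal prostate cells, had vehicle means of 25690 (labelled LNCaP) and 10350 (labelled VCaP) and was under the floor in PC3 and NCI-H660, where CHGA, a neuroendocrine granule protein, was at 2568 in the latter.

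Genes were ranked by their fitted log2 rise at the lower concentration in the line labelled LNCaP, among 454 genes called higher whose treated arrays both lay above both vehicle arrays. CYP46A1 ranked 1 (4.75), IQCN 2 (4.49), TNNC1 3 (4.41) and CFAP69 5 (3.43). The order rests on vehicle signals under the floor: with signals under 100 set to 100 the changes were 0.72, 1.03, 0.27 and 3.43, so that CFAP69 stood first of the 4 and TNNC1 last. LOC728392, at rank 4 (3.98), is not among the genes described. Just after CFAP69 came FOS (3.4), PCDHGA8 (3.36) and SH3GL2 (3.1). In that comparison 2.3% of all genes were called higher and 2.71% lower, and the rise of the members in it is what chose them, so it is described here and not tested. The 10 µM comparison with vehicle on these arrays shares the vehicle arrays, and that of 10 µM with 0.5 µM shares the 0.5 µM arrays, so no test is given for either. Genes called higher and lower were 6.31% and 6.74% in the former and 0.9% and 1.13% in the latter.

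The promoters are shown because a change in RNA of these genes is the result described, and because IQCN and CFAP69 differ in the bases before their starts. RefSeq windows for GRCh38.p14 were found for IQCN and CFAP69; CYP46A1 and TNNC1 had none in the table. The 250 bases before the annotated start are given 5′ to 3′ on the gene's strand, at chr19:18274453-18274702 (minus strand) for IQCN and chr7:90244924-90245173 (plus strand) for CFAP69. Capitals mark matches, on either strand, to TGAGTCA, the site of AP-1 factors, and to CCAAT.
IQCN: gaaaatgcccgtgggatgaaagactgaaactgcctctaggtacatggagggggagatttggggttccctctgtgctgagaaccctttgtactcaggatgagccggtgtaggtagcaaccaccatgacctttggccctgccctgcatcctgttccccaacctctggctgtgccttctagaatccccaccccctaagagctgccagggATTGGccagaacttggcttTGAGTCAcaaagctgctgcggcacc
CFAP69: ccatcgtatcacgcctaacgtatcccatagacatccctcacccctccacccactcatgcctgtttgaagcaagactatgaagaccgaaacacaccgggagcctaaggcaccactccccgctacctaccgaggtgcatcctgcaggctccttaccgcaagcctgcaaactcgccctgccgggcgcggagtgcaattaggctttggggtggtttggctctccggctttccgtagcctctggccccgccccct
The IQCN window holds 3 CG dinucleotides and that of CFAP69 holds 15, against a median of 11 over 35116 such windows. The match to TGAGTCA in the IQCN window ends 18 bases before the start, and 4.2% of all windows hold one. A CCAAT match lies 39 bases before the start of IQCN, as in 32% of windows at any position. Neither window matches CACGTG, the E-box (6.34% of windows), or TATAAA (10.7%), and that of CFAP69 matches none of the letters searched. The motifs were chosen after these sequences had been seen, so the shares do not measure how unusual a match is. A match is a description of the letters and not a bound site.

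CFAP69 was the member above the floor before treatment on the arrays labelled LNCaP. Its signal there was 310.3 and 340.3 in vehicle, 3246 and 3774 at 0.5 µM, and 2090 and 2259 at 10 µM. Both concentrations lay far above vehicle with no overlap, and the 10 µM arrays lay below the 0.5 µM arrays. The means were 325.3 ± 21.2, 3510 ± 373 and 2175 ± 119 (SD, n = 2), which is 10.8-fold and 6.69-fold over vehicle.

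The arrays labelled VCaP showed a smaller rise of CFAP69 from a higher start. The signal was 1163 and 1296 in vehicle, 2998 and 3294 at 0.5 µM, and 1848 and 1677 at 10 µM. The treated arrays all lay above vehicle, and again the lower concentration gave the higher signal. At 0.5 µM the rise was 2.56-fold (log2 change 1.36, standard error 0.23, limma adjusted p = 0.00204), higher on 2 of 2 arrays. At 10 µM the log2 change was 0.52 (95% interval 0.03 to 1.01, adjusted p = 0.157), which did not pass. Set directly against 0.5 µM, 10 µM gave a log2 difference of -0.84 (standard error 0.23, adjusted p = 0.0739), under the fold of 2 that a call needs.

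In NCI-H660 CFAP69 went the other way. Its signal was 145.4 and 188.9 in vehicle, 117.5 and 107.5 at 0.5 µM, and 76.2 and 57.6 at 10 µM. Each step was lower than the one before with no overlap, and the 10 µM arrays lay under the floor. At 10 µM CFAP69 was at least 1.66-fold lower than in vehicle (log2 change -1.32, standard error 0.23, limma adjusted p = 0.00159), and at 0.5 µM the log2 change was -0.56 (adjusted p = 0.293). The fall did not pass by a second probe set of the gene (log2 change -0.75, adjusted p = 0.178), with signals under 100 set to 100 (-0.73), at a floor of 200, or as the mean over the gene's probe sets (-1.53). In PC3, CFAP69 lay between 62.2 and 102.3 on the 6 arrays, so that all 3 group means were under the floor.

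The second probe set of CFAP69 gave the same order of groups on the arrays labelled LNCaP and VCaP. By it, the means labelled LNCaP were 362.3 in vehicle, 4739 at 0.5 µM and 3474 at 10 µM, and those labelled VCaP were 1057, 3222 and 1669. The rise at 0.5 µM on the arrays labelled VCaP was 3.05-fold (limma adjusted p = 0.00801). The last of its probe sets lay under 100 on all 24 arrays. IQCN likewise has a dim probe set, between 16.2 and 93.6 on all 24 arrays, and the values of IQCN given here come from the brighter one.

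**Figure D1:**
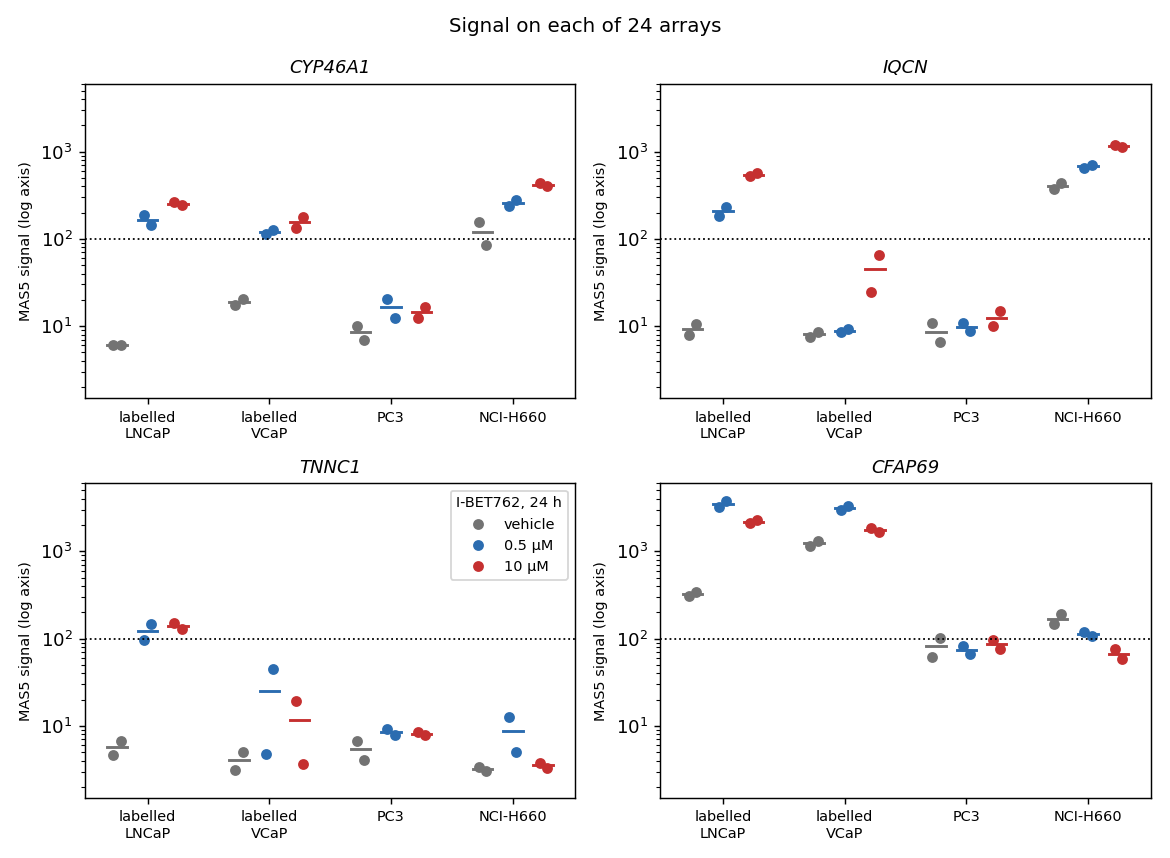
Signals of CYP46A1, IQCN, TNNC1 and CFAP69 (MAS5, log axis) on all 24 arrays, with the labelled lines along the horizontal axis and grey for vehicle, blue for 0.5 µM and red for 10 µM I-BET762. Each dot is an array, each bar the mean of its pair, and a dotted line is drawn at the floor of 100. CFAP69 on the arrays labelled LNCaP goes from a mean of 325.3 to 3510 and 2175, while the other 3 genes start under 11 there.

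**Figure D2:**
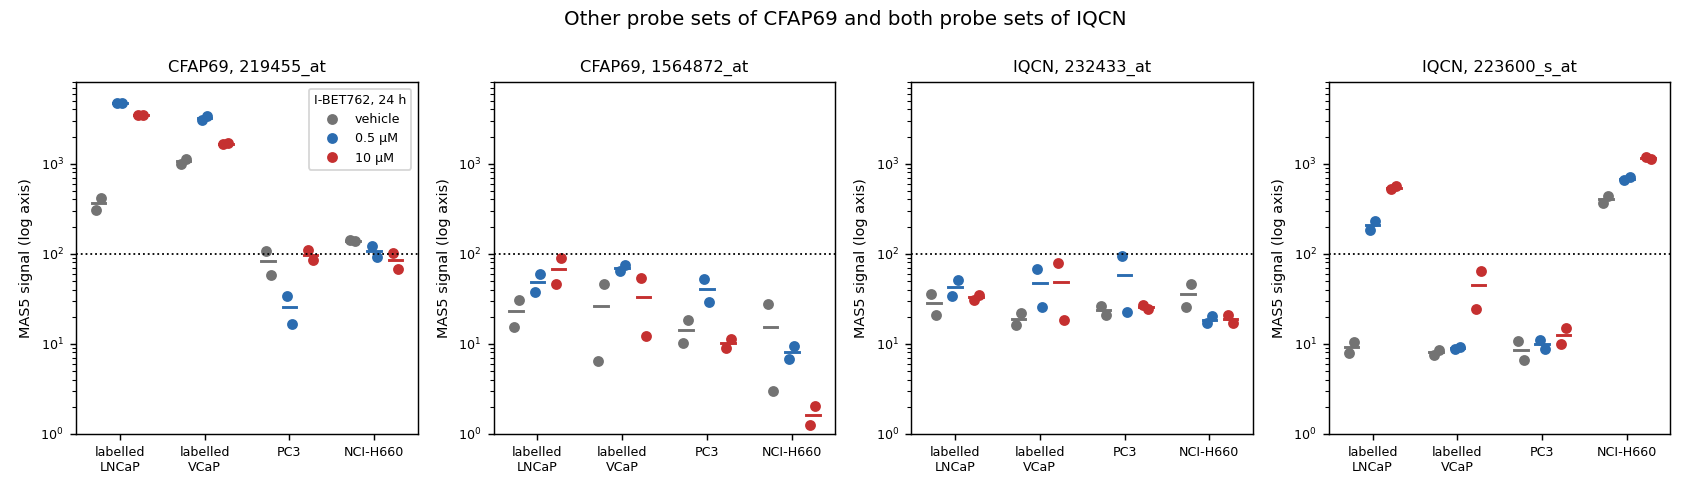
MAS5 signal (log axis) of the probe sets of CFAP69 other than the brightest and of both probe sets of IQCN, drawn as in the plot of signals by array. CFAP69 by its second probe set reaches means of 4739 and 3222 at 0.5 µM on arrays labelled LNCaP and VCaP, while its last probe set and the dim one of IQCN stay under 100 on every array.

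CYP46A1 was under the floor in vehicle in 3 of the 4 lines. On the arrays labelled LNCaP it was at 6.1 on both vehicle arrays, 189.2 and 142.6 at 0.5 µM, and 261 and 245.7 at 10 µM. Treated arrays lay above the floor and above vehicle, and the 10 µM arrays lay above the 0.5 µM arrays. The rise over vehicle was at least 1.64-fold at 0.5 µM and at least 2.53-fold at 10 µM, and 10 µM stood 1.54-fold over 0.5 µM. The fitted log2 changes of 4.75 and 5.38 therefore rest on vehicle signals whose size is not measured, and with signals under 100 set to 100 they were 0.72 and 1.34.

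CYP46A1 also came above the floor on the arrays labelled VCaP. Its signal was 17.6 and 20.7 in vehicle, 112.2 and 125.1 at 0.5 µM, and 133.4 and 178.9 at 10 µM. Every treated array lay above the floor and every vehicle array below it. The log2 change was 2.63 at 0.5 µM (standard error 0.30, limma adjusted p = 9.15e-05) and 3.02 at 10 µM (standard error 0.30, adjusted p = 1.16e-05), higher on 2 of 2 arrays each time. As a bound this is at least 1.18-fold and at least 1.54-fold. Neither call holds at a floor of 200 or with signals under 100 set to 100, where the log2 changes were 0.24 and 0.63.

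NCI-H660 was the line with CYP46A1 at the floor before treatment. The signal was 156.3 and 85.6 in vehicle, 239 and 276.8 at 0.5 µM, and 433.3 and 404.6 at 10 µM. The groups did not overlap and lay in the order of concentration. At 10 µM the rise was 3.62-fold (log2 change 1.86, standard error 0.30, limma adjusted p = 0.00104). At 0.5 µM it was 2.22-fold (log2 change 1.15, adjusted p = 0.0739), a call that was lost when the second vehicle array, the one at 85.6, was left out (log2 change 0.72, adjusted p = 0.4). It was lost too without either 0.5 µM array, with log2 changes of 1.26 and 1.05 (adjusted p = 0.191 and 0.325). The difference between the concentrations was 0.70 on the log2 scale (95% interval 0.06 to 1.35, adjusted p = 0.313). In PC3, CYP46A1 lay between 6.96 and 20.5 on all 6 arrays.

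IQCN rose with concentration on the arrays labelled LNCaP. Its signal was 7.95 and 10.5 in vehicle, 182.4 and 230.2 at 0.5 µM, and 518 and 563.2 at 10 µM. The groups did not overlap, and the vehicle arrays lay under the floor. The rise was at least 2.05-fold at 0.5 µM and at least 5.4-fold at 10 µM, and the 10 µM mean stood 2.64-fold over that at 0.5 µM.

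NCI-H660 had IQCN well above the floor in vehicle. The signal was 369.7 and 436.3 in vehicle, 654.5 and 707.7 at 0.5 µM, and 1187 and 1124 at 10 µM, again in the order of concentration with no overlap. At 10 µM IQCN rose 2.88-fold (log2 change 1.52, standard error 0.36, limma adjusted p = 0.0133), a call lost when its dim probe set was averaged in (log2 change 0.33, adjusted p = 0.597). At 0.5 µM the log2 change was 0.76 (95% interval -0.02 to 1.55, adjusted p = 0.413), and 10 µM against 0.5 µM gave the same size (0.76, adjusted p = 0.381). Neither of these passed.

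On the arrays labelled VCaP and in PC3, IQCN stayed under the floor. Labelled VCaP arrays were at 7.55 and 8.62 in vehicle, 8.63 and 9.15 at 0.5 µM, and 24.4 and 64.8 at 10 µM. The 10 µM arrays lay above the others but below the floor, so no fold is given (log2 change 2.30, limma adjusted p = 0.000543). The 6 PC3 arrays lay between 6.52 and 15.

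TNNC1 reached the floor on the arrays labelled LNCaP alone. The signal there was 4.63 and 6.77 in vehicle, 96.4 and 146.4 at 0.5 µM, and 150.3 and 129.6 at 10 µM. One of the 0.5 µM arrays lay just under 100, and the ranges of the concentrations overlapped. The rise was at least 1.19-fold at 0.5 µM and at least 1.4-fold at 10 µM, and the log2 difference between the concentrations was 0.23 with a standard error of 0.87. In vehicle TNNC1 lay between 3.01 and 6.77 on all 8 arrays. The highest signal in another line was 45.0, on 1 of the 0.5 µM arrays labelled VCaP, whose replicate was at 4.75. TNNC1 is thus the member whose rise is nearest to the floor, and its fitted log2 changes in the other lines have 95% intervals as wide as 0.00 to 3.75 (labelled VCaP, 0.5 µM) and -1.76 to 2.01 (NCI-H660, 10 µM).

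**Figure D3:**
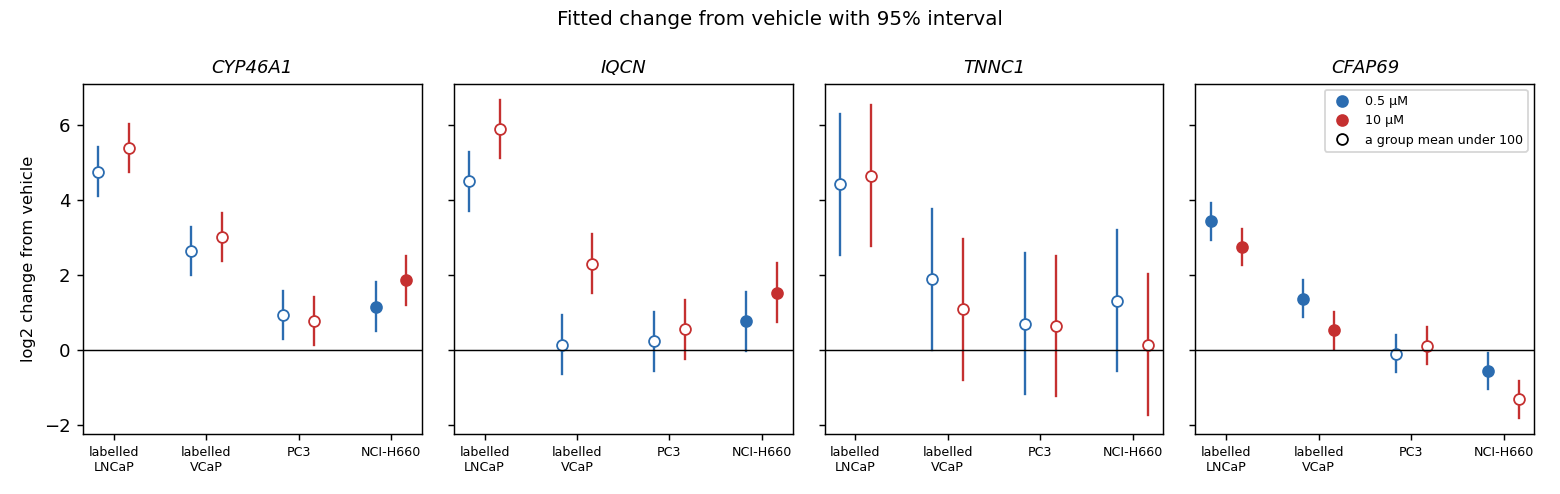
Fitted log2 change from vehicle (points) with its 95% interval (lines) for each gene, by labelled cell line, at 0.5 µM (blue) and 10 µM (red). Open points mark changes in which a group mean lies under 100. Those labelled LNCaP chose the genes at 0.5 µM and share their vehicle arrays at 10 µM; CFAP69 is the gene whose change is below 0 in NCI-H660 (-0.56 and -1.32).

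Counted over lines that the choice did not use, 2 of the 4 members (CYP46A1 and CFAP69) were called higher at 0.5 µM on the arrays labelled VCaP, where 0.748% of all genes were called higher and 2.5% lower, and 1 (CYP46A1) at 10 µM, where 2.95% were higher and 5% lower. In NCI-H660, 1 (CYP46A1) was called higher at 0.5 µM, against 0.344% of all genes (0.576% lower), and 2 (CYP46A1 and IQCN) at 10 µM, against 2%. The 1 called lower there at 10 µM was CFAP69, against 3.68% of all genes. In PC3 limma called 0 of 4 higher at 0.5 µM (0.627% of all genes, and 0.622% lower) and 0 at 10 µM (2.23%, and 2.07% lower), with 1 higher at an unadjusted p under 0.05 each time. That 1 was CYP46A1. All 4 members had every group mean under the floor in PC3, so none could be called there whatever its change. A group mean reached the floor for 2 of the 4 members on the arrays labelled VCaP and for 3 of the 4 in NCI-H660. No member was called between 10 and 0.5 µM by limma in these 3 groups of arrays. At an unadjusted p under 0.05, 1 was higher and 1 lower at 10 µM on the arrays labelled VCaP and in NCI-H660, and 0 were higher in PC3. Genes called higher at 10 than at 0.5 µM were 0.384%, 0.167% and 0.091% of all genes on the arrays labelled VCaP, in NCI-H660 and in PC3, and those called lower were 0.673%, 0.501% and 0.0708%.

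The lines differed in the level of the members before treatment. CFAP69 stood highest on the arrays labelled VCaP (1230 ± 94.4, SD, n = 2), then on those labelled LNCaP (325.3 ± 21.2) and in NCI-H660 (167.2 ± 30.7), with PC3 under the floor. It was 7.41-fold higher on the arrays labelled VCaP than in NCI-H660 (limma adjusted p = 1.84e-07) and at least 12.1-fold higher than in PC3 (adjusted p = 1.48e-08). NCI-H660 and PC3, neighbours in that order, differed by at least 1.64-fold (adjusted p = 0.00182), a call that did not hold after quantile normalization (log2 difference 0.84) or median centring (0.87), with signals under 100 set to 100 (0.71), at a floor of 200, averaged over probe sets (0.43), or without the second NCI-H660 (0.87) or the first PC3 (0.7) vehicle array. The arrays labelled LNCaP were not tested against the other lines.

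IQCN and CYP46A1 stood highest in NCI-H660 before treatment. IQCN was at 403 ± 47.1 (SD, n = 2), at least 4.02-fold over the arrays labelled VCaP (limma adjusted p = 2.9e-08) and over PC3 (adjusted p = 3.35e-08). CYP46A1 was at 121 ± 50.0, at least 1.16-fold over each (adjusted p = 7.6e-06 and 2.14e-07), and neither held without the first NCI-H660 vehicle array, since the other lay under the floor, nor at a floor of 200 or with signals under 100 set to 100. TNNC1 was under the floor in all 4 lines, so its levels have no order. In these pairs of untreated lines, 27.8% (labelled VCaP against NCI-H660), 22.5% (labelled VCaP against PC3) and 28.3% (NCI-H660 against PC3) of all genes were called different.

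Of 27 measured genes of the troponin, tropomyosin, actin and myosin filaments of striated muscle, limma called 0 higher in any of the 8 comparisons with vehicle (0 to 2 higher at an unadjusted p under 0.05). Of all genes 0.344% to 6.31% were called higher in these comparisons and 0.576% to 6.74% lower. MYBPC1, a myosin-binding protein, fell 10.3-fold at 0.5 µM on the arrays labelled LNCaP, from 1157 to 114 (limma adjusted p = 0.000104), and at least 11.6-fold at 10 µM. TNNT1, the slow skeletal form of the troponin subunit that binds tropomyosin, fell at least 2.43-fold at 10 µM on the same arrays (adjusted p = 0.0038). The median log2 change of the list at 0.5 µM there was 0.03, against 0.09 over all genes. At 10 µM it was 0.22, against 0.06. Only 3 to 7 of the 27 genes reached the floor in any group.

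Genes of oxysterol synthesis and of the liver X receptors, 19 of which were measured, gave 3 calls higher and 5 lower over the 8 comparisons with vehicle, in which 0.344% to 6.31% of all genes were called higher and 0.576% to 6.74% lower. None was called at 0.5 µM on the arrays labelled LNCaP by limma, where an unadjusted p under 0.05 was reached by 4 higher and 1 lower, with a median log2 change of 0.15 against 0.09 over all genes. MYLIP, a ubiquitin ligase of the low density lipoprotein receptor and a target of liver X receptors, rose 4.18-fold at 10 µM on these arrays (460.1 to 1918, limma adjusted p = 5.66e-08). LPCAT3, a phospholipid acyltransferase and likewise a target of these receptors, fell 3.62-fold in the same comparison (898.2 to 248.2, adjusted p = 8.9e-07). ABCG1, a cholesterol exporter under the same receptors, rose at least 1.43-fold at 0.5 µM and at least 2.08-fold at 10 µM in PC3 (adjusted p = 0.00228 and 4.69e-05), the line in which CYP46A1 stayed under the floor. SULT2B1, a sterol sulfotransferase, fell at 10 µM in PC3, in NCI-H660 and on the arrays labelled VCaP (adjusted p = 0.0247, 0.0425 and 0.0023). Whether the changes of these genes bear on that of CYP46A1 was not tested.

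Motile cilia and flagella were represented by 51 measured genes. In the line labelled LNCaP, 0.5 µM gave 3 calls up and 1 down, against 2.3% and 2.71% of all genes. Calls at 10 µM numbered 5 up and 2 down, against 6.31% and 6.74%. ROPN1L, a protein of the sperm fibrous sheath and of motile cilia, passed in 7 of the 8 comparisons with vehicle, all but NCI-H660 at 0.5 µM, and was higher each time. Its largest bound was in PC3 at 10 µM, at least 4.15-fold, from 60.02 to 418.2 (limma adjusted p = 7.08e-05). SPEF2, a flagellar protein, rose in the line labelled LNCaP, 2.17-fold at 0.5 µM and 3.53-fold at 10 µM (limma adjusted p = 0.000568 and 2.8e-06). RSPH1, of the radial spoke, rose at least 1.98-fold and at least 2.24-fold there, and DNAH5, a dynein heavy chain of the outer arm, fell 2.04-fold and 2.94-fold. The list's median log2 change in the line labelled LNCaP was 0.42 at 0.5 µM, against 0.09 over all genes, and 0.16 against 0.06 at 10 µM. Only 21 and 19 of the 51 genes reached the floor in these comparisons. Both medians thus rest largely on signals under it. With the VCaP label the medians were 0 and -0.11, against 0.04 and 0.06 over all genes. PC3 had 0.06 and -0.18 (0.01 and -0.01 over all genes), and NCI-H660 had -0.1 and -0.25 (-0.03 and -0.07). At an unadjusted p under 0.05 by limma, list genes going down outnumbered those going up with the VCaP label (9 against 3, then 6 against 2). So they did in NCI-H660 (4 against 2, then 8 against 4). Those going up were more numerous in PC3 (5 against 4 at each concentration) and with the LNCaP label (6 against 2, then 8 against 4). In NCI-H660 at 10 µM, 3 of the list were called higher and 2 lower, where 2% and 3.68% of all genes were. These 3 are all the list genes called higher there, a count that became 0 without the first vehicle array, and 1 without the second vehicle array or the first 10 µM array. CFAP73, a ciliary and flagellar protein, rose at least 2.17-fold there (adjusted p = 0.0141), and SPAG6, of the axoneme's central pair, fell 2.57-fold (adjusted p = 0.0308).

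Of 22 measured genes of IQ motif proteins and calmodulins, 2 calls were higher and 5 lower over the same 8 comparisons, with the same background. CALML4, a calmodulin-like protein, fell at least 4.81-fold at 0.5 µM on the arrays labelled LNCaP (limma adjusted p = 0.00691) and 3.75-fold at 10 µM on those labelled VCaP (adjusted p = 0.0211). IQGAP2, a scaffold related to IQGAP1, fell 7.42-fold at 10 µM on the arrays labelled LNCaP (1078 to 148.7, adjusted p = 0.0777), and IQGAP3 fell 2.06-fold at 0.5 µM on those labelled VCaP (adjusted p = 0.000112). IQGAP1, a scaffold of the actin cytoskeleton, rose 2.24-fold at 10 µM on the arrays labelled VCaP (adjusted p = 9.77e-06). IQUB, at 138.6 after 10 µM on the arrays labelled LNCaP, was the other call higher (at least 1.37-fold, adjusted p = 0.0945).

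Of 20 male germ cell markers limma called 0 higher in the 8 comparisons (0 to 4 at an unadjusted p under 0.05). Of all genes 0.344% to 6.31% were called higher in them. On the arrays labelled LNCaP 3 of the 20 reached the floor in vehicle and none after treatment. The summed signal of the 20 there was 908 to 1024 in vehicle, 957 to 1109 at 0.5 µM and 783 to 1010 at 10 µM. LDHC was called lower at 10 µM on these arrays (144.4 to 58.5, limma adjusted p = 0.00835), where 6.74% of all genes were. Of 20 neuron markers, 1 was called higher at 0.5 µM and 2 at 10 µM in the line labelled LNCaP. Of all genes 2.3% and 6.31% were called higher there. In vehicle and at 10 µM, 9 and 8 of the 20 reached the floor. MAP2, a microtubule-associated protein of neurons, rose 2.44-fold and 3.68-fold there (1716 to 4192 and 6323, limma adjusted p = 0.00985 and 0.000277), and NEFL, a neurofilament, rose 2.42-fold at 10 µM (adjusted p = 0.000163). MAP2 also rose 2.35-fold and 5.42-fold on the arrays labelled VCaP, and 2.31-fold and 2.86-fold in PC3. The summed signal of the neuron list went from 12640 to 12704 in vehicle up to 17404 to 18684 at 0.5 µM and 25549 to 27067 at 10 µM on the arrays labelled LNCaP. The median log2 change of the list was 0.06 and -0.10, against 0.09 and 0.06 over all genes, and 2 genes were lower at an unadjusted p under 0.05 at each concentration. In PC3 the summed signal was 8384 to 8469 in vehicle, 12375 to 13558 at 0.5 µM and 16579 to 17617 at 10 µM. On the arrays labelled VCaP it was 6282 to 6516 in vehicle and 7335 to 8073 at 10 µM. In NCI-H660 it was 24739 to 26433 and 28318 to 28838. At 10 µM limma called 3 of the 20 higher in PC3, against 2.23% of all genes. These were MAP2, TUBB3 (2.23-fold, adjusted p = 0.000105) and NEFL (2.05-fold, adjusted p = 0.00262). What part, if any, these genes have in the rise of CYP46A1 was not tested. Over all 6 lists, 2.52% of 159 genes were higher at 0.5 µM on the arrays labelled LNCaP, against 2.3% of all genes, and this count of 4 became 2 after quantile normalization or median centring. On the arrays labelled VCaP the share was 1.26% against 0.748%, in NCI-H660 0.629% against 0.344%, and in PC3 2.52% against 0.627%, a count of 4 that became 0 with the line fitted alone. At 10 µM the shares were 3.77% in PC3, 1.89% in NCI-H660, 5.66% in the line labelled LNCaP and 1.89% in that labelled VCaP, against 2.23%, 2%, 6.31% and 2.95%, and the PC3 count of 6 became 1 with the line fitted alone.

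Of the 16 nearest measured genes on either side of the members in the RefSeq order limma called 0 at 0.5 µM on the arrays labelled LNCaP (an unadjusted p under 0.05 was reached by 3 higher and 1 lower), where 2.3% of all genes were called higher. At 10 µM 1 of 16 was called there, against 6.31%. JUND, an AP-1 factor and the nearest measured gene after IQCN, rose 2.42-fold at 10 µM on these arrays (6032 to 14590, limma adjusted p = 1.12e-05). At 0.5 µM its log2 change there was 0.70 (adjusted p = 0.00374), under the fold of 2 that a call needs. JUND also rose 2.06-fold at 10 µM in PC3, where IQCN stayed under the floor (adjusted p = 0.000282). In NCI-H660, where IQCN rose, and on the arrays labelled VCaP its log2 changes at 10 µM were 0.59 and 0.47. Both were under the fold of 2 (limma adjusted p = 0.0112 and 0.0298). Whether IQCN depends on this or any other neighbour was not tested. MPV17L2 lies on the other side of IQCN with RAB3A between them. In NCI-H660 it rose 2.13-fold at 0.5 µM and 3.48-fold at 10 µM (310 to 658.3 and 1074, limma adjusted p = 0.00214 and 6.03e-06). It was the 1 of 16 called there each time, against 0.344% and 2% of all genes higher. Its log2 changes at 0.5 and 10 µM were 0.21 and 0.57 on the arrays labelled LNCaP. They were 0.31 and 0.71 in PC3, and -0.02 at each concentration on the arrays labelled VCaP. None of these was called. STEAP1 and STEAP2, metalloreductases of prostate epithelium that lie before CFAP69, had log2 changes of 0.74 and 0.86 at 0.5 µM in the line labelled LNCaP, and CLDN12 after it had 0.40. The neighbours of CYP46A1 (CCDC85C, HHIPL1, EML1 and EVL) had log2 changes between -0.14 and 0.40 there, and those of TNNC1 (PHF7, SEMA3G, NISCH and STAB1) between -0.24 and 0.41.

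**Figure D4:**
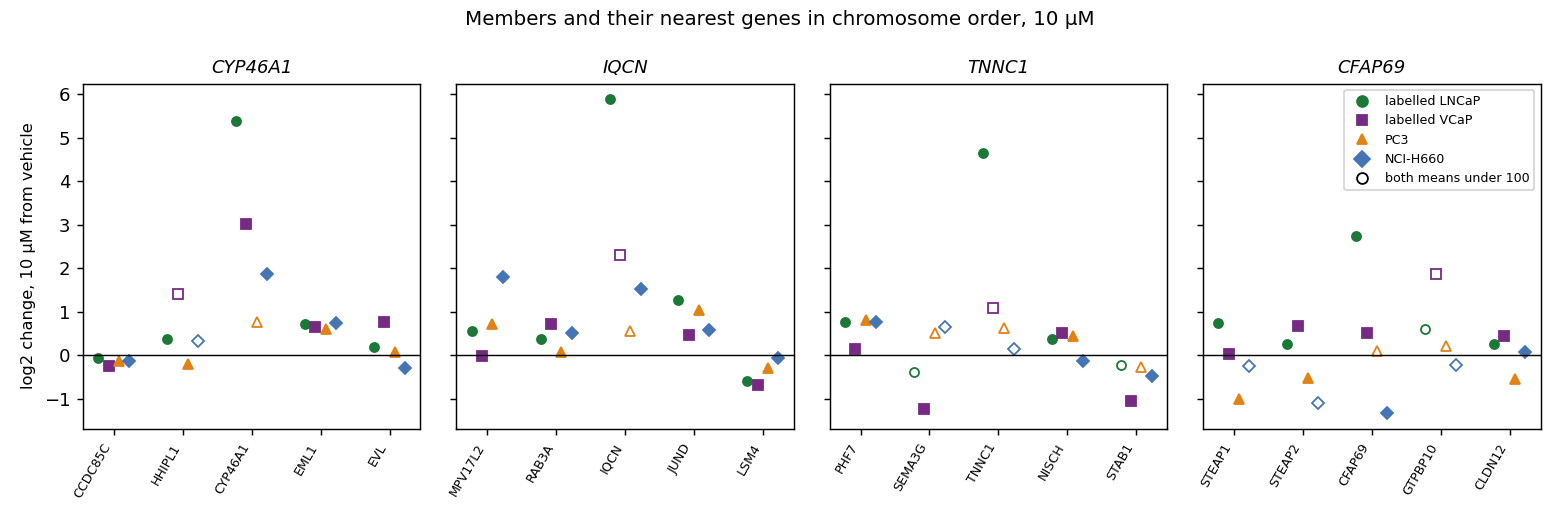
Fitted log2 change at 10 µM from vehicle for each member and its 2 nearest measured genes on either side, in chromosome order, by labelled cell line (marker and colour). Open markers have both group means under 100. The members labelled LNCaP, whose vehicle arrays chose them, lie between 2.74 and 5.88, but between 0.48 and 2.74 with signals under 100 set to 100, and JUND lies at 1.27 there.

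The members did not share a single pattern. On log2 signals with those under 100 set to 100, CYP46A1 and IQCN had a Pearson r of 0.88 over the 24 arrays, TNNC1 and CFAP69 0.47, and IQCN and CFAP69 -0.20. The 24 points are 2 arrays of each of 12 groups in 4 lines, so they are not independent. They include the arrays labelled LNCaP, where a rise chose all 4 members. A positive r between members, or with another gene that rises there, is therefore partly built in by the choice. Among 13758 other genes the patterns most like that of IQCN were those of CLSTN2 (r = 0.983), TLL2 (0.972) and NFIL3 (0.958). CLSTN2, a calsyntenin, went from 105.3 to 281.9 and 579.8 on the arrays labelled LNCaP and from 594.4 to 727.3 and 962.7 in NCI-H660, with all group means under 40 elsewhere. Those most like CYP46A1 were IL10RA (0.928), HMCES (0.91) and CASP9 (0.9), and those most like TNNC1 were KPLCE (0.948), ZNF483 (0.88) and EBF1 (0.878). TNNC1 was over 100 on 3 arrays, all labelled LNCaP and fewer than the 4 asked of the other genes, so each r with it rests on the arrays of the line that chose it. CFAP69 was most like LOC105374809 (0.972), HMGN2P46 (0.964) and SLC30A4 (0.959). SLC30A4, a zinc transporter, went from 2891 to 11800 and 16180 on the arrays labelled LNCaP, without the lower level at 10 µM that CFAP69 had, and from 12520 to 15280 and 15000 on those labelled VCaP.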

How the data were processed

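The deposited values are MAS5 signals, a linear intensity for each probe set that the authors computed array by array and scaled to a target of 500, which was the trimmed mean measured here. Of 54675 probe sets, 62 controls were left out. One limma model (3.58.1, R 4.3.3) of all 12 groups was fitted to log2 signals, without a trend (12 residual and 1.29 prior degrees of freedom). Called genes had, after Benjamini-Hochberg adjustment across 54613 probe sets, an adjusted p under 0.1, a fold over 2 and a mean of at least 100 in either group, a floor that stands in for the authors' detection calls. Intervals are 95%. Between replicates, r of log2 signals was 0.934 to 0.953, and 2 arrays a group limit the precision.

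Each gene was read from its brightest probe set by mean log2 signal, _x_at left out where another exists. Symbols were updated through gene IDs (99.87% of 41091 matched); 1801 probe sets with several symbols and 11721 without one named no gene. Members and lists were chosen with earlier results of these data known. For a list, up to 4 of the called genes with the largest change in the comparison discussed are named; neighbours are the 2 nearest measured genes on each side, and like patterns the 3 highest r among genes at 100 or above on at least 4 arrays. The motifs were chosen after the promoter sequences had been seen. Simulated data with known changes were used to test the model. The changes were planted in probe sets above the floor in vehicle, so rises from under the floor were not covered. Alternatives were other floors, low signals set to 100, quantile normalization, median centring, an intensity trend, lines fitted alone, a replicate block, a stricter p, adjustment over detected probe sets, a gene's mean over probe sets, and leaving out each array of the lines compared.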

Additional observations from a re-analysis of the deposited data

Results flagged for a closer look

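The changes of CFAP69 and CYP46A1 differed between lines when the difference itself was tested in the same limma model, over 3 pairs of lines and 3 comparisons of concentrations. The arrays labelled LNCaP were left out because they chose the genes. For CFAP69 at 0.5 µM, the log2 change on the arrays labelled VCaP exceeded that in PC3 by 1.46 (standard error 0.32, adjusted p = 0.0312) and that in NCI-H660 by 1.92 (standard error 0.32, adjusted p = 0.00491). At 10 µM it exceeded that in NCI-H660 by 1.84 (adjusted p = 0.00255), and NCI-H660 against PC3 gave -1.43 (adjusted p = 0.0275), with the PC3 means under the floor. For CYP46A1 the change on the arrays labelled VCaP exceeded that in PC3 by 1.7 at 0.5 µM (adjusted p = 0.0591) and by 2.25 at 10 µM (adjusted p = 0.00662), and the fitted difference from NCI-H660 was 1.48 at 0.5 µM (adjusted p = 0.0841). These CYP46A1 differences count vehicle signals under the floor on the arrays labelled VCaP and in PC3, so their size is not measured. With signals under 100 set to 100 the CYP46A1 change at 0.5 µM was 0.24 on the arrays labelled VCaP and 1.04 in NCI-H660, so the direction of that difference turned.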

How the results depend on the processing

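With signals under 100 set to 100 or a floor of 200, 1 member was higher at 0.5 µM and 0 at 10 µM on the arrays labelled VCaP, and 1 member differed in vehicle between NCI-H660 and PC3 (limma; 3 in the report, 2 after quantile normalization, median centring or averaging probe sets, and 2 to 3 leaving out single arrays). Without a floor 2 were higher at 10 µM and 1 at 10 over 0.5 µM on the arrays labelled VCaP, and 2 differed in vehicle from PC3. The 1 member higher in NCI-H660 at 0.5 µM became 0 with an intensity trend, with each line fitted alone, with the replicate block and at an adjusted p under 0.05 (CYP46A1, adjusted p = 0.0739 to 0.289 there), and 0 to 1 leaving out single arrays. Averaging probe sets left 1 member higher in NCI-H660 at 10 µM and turned IQCN at 0.5 µM to -0.07, since its other probe set is under 100 on every array.

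Replicate numbers did not pair the arrays (r of replicate differences -0.08 to 0.14 between groups of a line). The replicate block gave 145 called genes in NCI-H660 at 0.5 µM against 182 and lost CYP46A1 there (adjusted p = 0.127), and it changed no other call of a member. Median centring moved changes by -0.183 and -0.129 (labelled LNCaP, 0.5 and 10 µM), -0.133 (labelled VCaP, 10 µM), 0.179 (NCI-H660, 10 µM) and 0.117 (NCI-H660, 10 against 0.5 µM).

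List genes called higher at 0.5 µM on the arrays labelled LNCaP numbered 4, and 2 after quantile normalization, median centring or averaging probe sets. Labelled VCaP had 2 at 0.5 µM, 4 without a floor, 1 at a floor of 200 or with low signals set to 100, 0 with averaging, and 0 to 2 leaving out arrays; at 10 µM 3 became 6 without a floor and 1 with averaging. PC3 had 4 at 0.5 µM, 2 at a floor of 200, with low signals set to 100 or with averaging, and 0 fitted alone, and 6 at 10 µM became 1 fitted alone. NCI-H660 had 1 at 0.5 µM, 2 with low signals set to 100, 0 fitted alone, at the stricter p or with averaging, and 0 to 1 leaving out arrays; at 10 µM 3 became 1 with averaging and 0 to 2 leaving out arrays. The cause of these shifts was not tested.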
